A study of Mus musculus with 6 samples.

Results

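Glutathione peroxidases and peroxiredoxins are the enzymes that reduce hydrogen peroxide and organic peroxides in animal cells, and 10 of their genes were followed here: Gpx1, Gpx4, Gpx7, Gpx8 and Prdx1 to Prdx6. They were chosen by gene name, but with earlier results of these data known, and the choice leaves out Gpx2, Gpx3, Gpx5 and Gpx6. Each was read through every probe whose RefSeq transcript accession belongs to it. This gave 15 probes of 56570 on the array, for 10 of 44702 genes or unnamed transcripts. The 4 Gpx genes, Prdx3 and Prdx4 had 1 probe each, Prdx2, Prdx5 and Prdx6 had 2, and Prdx1 had 3. All 15 probes were well above background on all 6 arrays.

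The cells were NIH3T3, an established line of mouse embryonic fibroblasts, kept in medium with 2% FBS. They carried either a retroviral pCX4bsr vector that expresses GGCT (GGCT-OE) or the control vector (empty), 3 Agilent 1-colour arrays of each, numbered as experiments 1 to 3. GGCT is gamma-glutamylcyclotransferase, an enzyme of glutathione breakdown. The comparison asks which of these transcripts differed when GGCT was expressed. Both groups are infected populations of 1 line, and the labels do not say whether the populations were established more than once, so p-values measure the spread between these arrays.

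Glutathione peroxidases are named for the use of glutathione as the electron donor, as by Gpx1 and Gpx4. Gpx1 and Gpx4 carry selenocysteine in the active site, and Gpx4 is the member that reduces lipid peroxides within membranes and thereby holds back ferroptosis. Gpx7 and Gpx8 lie in the endoplasmic reticulum, have cysteine in that place, and pass oxidising equivalents from peroxide to protein disulfide isomerases. Peroxiredoxins react through a cysteine and most are recycled by thioredoxin: Prdx1 and Prdx2 in the cytosol, Prdx3 in mitochondria, Prdx4 in the endoplasmic reticulum, and Prdx5 in several compartments. Prdx6 differs in using glutathione and in having a phospholipase activity.

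With GGCT, 4 of the 10 genes fell (Gpx7, Gpx1, Gpx8 and Prdx1), 1 rose (Prdx4) and 5 did not pass the test (Gpx4, Prdx2, Prdx3, Prdx5 and Prdx6). The test was limma's across 23774 genes, with Benjamini-Hochberg adjusted p-values under 0.05 called. Over all genes tested 34.8% were called, 17.3% lower and 17.5% higher with GGCT, so the members' 5 calls of 10 are to be read against a background of many calls. The median log2 difference was -0.08 over the 10 genes and 0.02 over all genes tested. The glutathione peroxidases had 3 genes lower, 0 higher and 1 not called (median -0.79). The peroxiredoxins had 1 lower, 1 higher and 4 not called (median 0.03). Whether the families differ was not tested.

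The stretches of 150 bases just upstream of the annotated start are shown for the 5 genes that were called, so that their sequences can be compared; they come from RefSeq (build GRCm38.p6), are written on the gene's strand, 5′ to 3′, and capitals mark matches to 3 of the motifs searched.
Gpx1 (chr9:108338930-108339079, + strand): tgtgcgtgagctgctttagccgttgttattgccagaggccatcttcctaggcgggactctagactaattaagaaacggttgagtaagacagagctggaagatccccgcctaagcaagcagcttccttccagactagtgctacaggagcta
Gpx7 (chr4:108406714-108406863, - strand): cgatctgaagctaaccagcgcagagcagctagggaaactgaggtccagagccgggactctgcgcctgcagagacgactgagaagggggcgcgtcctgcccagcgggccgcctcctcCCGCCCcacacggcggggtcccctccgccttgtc
Gpx8 (chr13:113046389-113046538, - strand): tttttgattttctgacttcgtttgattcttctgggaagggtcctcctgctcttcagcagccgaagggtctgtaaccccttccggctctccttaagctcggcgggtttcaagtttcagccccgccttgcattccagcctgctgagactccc
Prdx1 (chr4:116685449-116685598, + strand): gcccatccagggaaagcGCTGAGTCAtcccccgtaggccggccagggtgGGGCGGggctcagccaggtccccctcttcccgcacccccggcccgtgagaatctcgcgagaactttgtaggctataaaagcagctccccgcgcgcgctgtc
Prdx4 (chrX:155338461-155338610, - strand): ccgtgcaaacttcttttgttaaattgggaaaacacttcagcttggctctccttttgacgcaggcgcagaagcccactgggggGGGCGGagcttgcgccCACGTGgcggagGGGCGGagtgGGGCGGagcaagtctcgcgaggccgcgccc

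RefSeq windows were found for 9 of the 10 genes, all but Prdx6. The antioxidant response element core, TGACNNNGC on either strand, is the site that NRF2 with small MAF proteins binds, and it was found in Prdx1 alone among the 9, starting 133 bases upstream and on the reverse strand. Of all 32851 windows of this length 6.80% held it. The E-box CACGTG was found in Prdx4 alone of the 9, against 4.30% of all windows. The GC box GGGCGG was found in Gpx4, Gpx7, Prdx1, Prdx3 and Prdx4, with 3 copies in Prdx4, against 28.6% of all windows. The CCAAT box was found in Gpx4 and Prdx4, against 24.5%. No window of the 9 genes held the C/EBP-ATF composite TGATGNAA (2.23% of all windows), the endoplasmic reticulum stress element (CCAAT and CCACG separated by 9 bases, 0.0822%) or the forkhead site TGTTTAC (1.80%). A match describes these letters only.

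Gpx7 showed the largest difference of the 10. Its processed intensities were 868, 811 and 879 on the empty arrays of experiments 1 to 3 and 121, 117 and 105 on the GGCT-OE arrays. As log2 signal relative to the array's 75th percentile, the scale used from here on, these were 1.19, 0.93 and 1.04 against -1.75, -1.98 and -2.17. The groups lay far apart, and the spread within each was small beside the gap. Gpx7 fell 8.12-fold (log2 difference -3.02 ± 0.13, SE, n = 3 against 3, limma adjusted p = 6.49e-05). Of the 23774 genes, 1321 (5.56%) differed by at least 1 downward on the log2 scale, and Gpx7 had the 233rd lowest difference. Slide 1 alone gave -2.94, slide 2 alone gave -3.06, and normexp background correction gave -2.42.

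Gpx8, the other peroxidase of the endoplasmic reticulum and a membrane protein, also fell, by less. It stood at 4.34, 4.40 and 4.47 in empty cells and at 3.77, 3.80 and 3.80 with GGCT. No array of one group reached the other, and the 3 GGCT-OE arrays lay close together. The fold was 1.53 (-0.61 ± 0.08, adjusted p = 0.00234). Within slides the difference was -0.57 (slide 1) and -0.63 (slide 2). The call was lost without both arrays of experiment 2 (-0.62, adjusted p = 0.0518) or of experiment 3 (-0.58, adjusted p = 0.0835).

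Gpx1, the abundant cytosolic and mitochondrial selenoenzyme, was about halved. Its intensities were 8779, 8534 and 8833 in empty cells and 4755, 4786 and 4912 with GGCT. On the log2 scale these were 4.53, 4.33 and 4.36 against 3.54, 3.38 and 3.38. Experiment 1 was the highest array in both groups, and the difference within each experiment was nearly the same (-0.99, -0.95 and -0.98). Gpx1 fell 1.96-fold (-0.97 ± 0.10, adjusted p = 0.000998). Gpx1 and Gpx7 kept their calls in all 20 alternatives run on gene values, with adjusted p up to 0.0470 for Gpx1 and up to 0.0102 for Gpx7.

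Gpx4 did not follow. Its levels were 6.04, 5.73 and 5.80 in empty cells and 6.11, 5.86 and 5.86 with GGCT, so the groups overlapped. Its difference was 0.09 (95% confidence interval -0.22 to 0.39, adjusted p = 0.645), an interval that holds neither the decrease of Gpx1 nor that of Gpx8. In both groups experiment 1, the one on slide 1, was highest. With the slide as a block the adjusted p was 0.213, and it did not reach the threshold in any of the 20 alternatives.

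**Figure D1:**
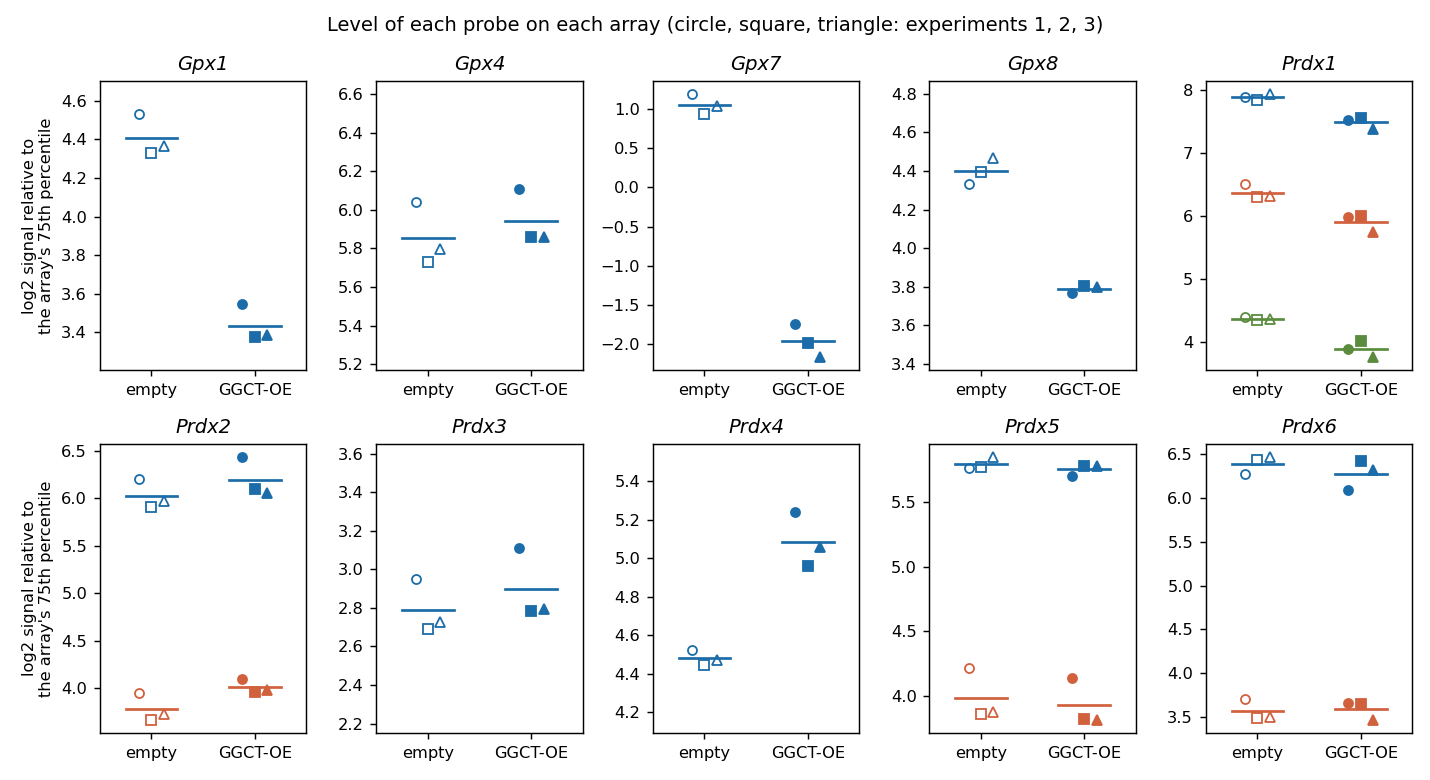
Level of each probe on each array, as log2 signal relative to the array's 75th percentile; open symbols are empty arrays, filled symbols GGCT-OE arrays, lines are group means, and colours separate probes of 1 gene. The groups are separate for Gpx1, Gpx7, Gpx8, Prdx4, all 3 Prdx1 probes and the dimmer Prdx2 probe, and the y axes differ between genes.

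Among the peroxiredoxins Prdx1 fell on each of its 3 probes. On the brightest the levels were 7.89, 7.84 and 7.94 in empty cells and 7.53, 7.56 and 7.38 with GGCT, a 1.32-fold decrease (-0.40 ± 0.09, adjusted p = 0.0155). On the next probe the processed intensities were 34409, 33299 and 34318 in empty cells and 25678, 29561 and 25218 with GGCT, and on the dimmest 7938, 8655 and 8787 against 5990, 7382 and 6341. On the log2 scale experiment 3 gave the lowest GGCT-OE array and the widest difference on every probe, and the groups were separate on all 3 probes. With every probe tested as its own row, the dimmer probes differed by -0.46 ± 0.11 (adjusted p = 0.0203) and -0.49 ± 0.09 (adjusted p = 0.00933).

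The brightest Prdx1 probe, which represents the gene, was sensitive to the processing. Quantile normalization (-0.27, adjusted p = 0.0974), normexp background (-0.22, adjusted p = 0.176) and testing dim probes as well (adjusted p = 0.0825) each left it above 0.05. So did the fit without the GGCT-OE array of experiment 3 (-0.34, adjusted p = 0.0607), without the empty array of experiment 3 (-0.37, adjusted p = 0.0733), and without both arrays of experiment 2 (-0.46, adjusted p = 0.0906) or of experiment 3 (-0.32, adjusted p = 0.229). This probe read 90398 to 105145 units in empty cells. The dimmer probes kept the call with quantile normalization (-0.41 and -0.44, adjusted p = 0.0148 and 0.00974) and after normexp correction (-0.42 and -0.47, adjusted p = 0.00510 and 0.00236).

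Prdx2, its close relative and also cytosolic, had differences of 0.17 on the brighter probe (95% confidence interval -0.18 to 0.51) and 0.23 on the dimmer one (-0.03 to 0.48). The dimmer probe stood at 3.95, 3.67 and 3.72 in empty cells and 4.09, 3.96 and 3.98 with GGCT, without overlap. Its adjusted p was 0.147, and 0.0349 when experiments were blocked. The brighter probe overlapped between groups (6.21, 5.91 and 5.97 against 6.44, 6.10 and 6.05), with adjusted p = 0.416, or 0.0735 when blocked.

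Prdx4, the secretory pathway peroxiredoxin, was the 1 member that rose. Its levels were 4.53, 4.45 and 4.47 in empty cells and 5.24, 4.96 and 5.06 with GGCT. The lowest GGCT-OE array was well above the highest empty array. The increase was 1.52-fold (0.61 ± 0.10, adjusted p = 0.00566), and within slides it was 0.72 (slide 1) and 0.55 (slide 2). Dropping experiment 2 from both groups (0.65, adjusted p = 0.0555) or experiment 3 (0.62, adjusted p = 0.108) ended the call. Of the 3 members that work in the endoplasmic reticulum, Gpx7 and Gpx8 thus fell and Prdx4 rose.

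The mitochondrial Prdx3 stood at 2.95, 2.69 and 2.73 in empty cells and at 3.11, 2.79 and 2.80 with GGCT. Experiment 1 was highest in both groups, and the groups overlapped (difference 0.11, 95% confidence interval -0.20 to 0.42, adjusted p = 0.564). Prdx5 differed by -0.04 (-0.23 to 0.15, adjusted p = 0.724) on its brighter probe, where the arrays ran from 5.76 to 5.85 in empty cells and from 5.70 to 5.78 with GGCT. Its other probe differed by -0.06 (-0.41 to 0.29). Prdx6 differed by -0.12 (-0.40 to 0.16, adjusted p = 0.492) on the brighter probe and by 0.03 (-0.22 to 0.28) on the other. The brighter probe's arrays ran from 6.28 to 6.47 in empty cells and from 6.09 to 6.42 with GGCT. These intervals do not show equal levels.

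**Figure D2:**
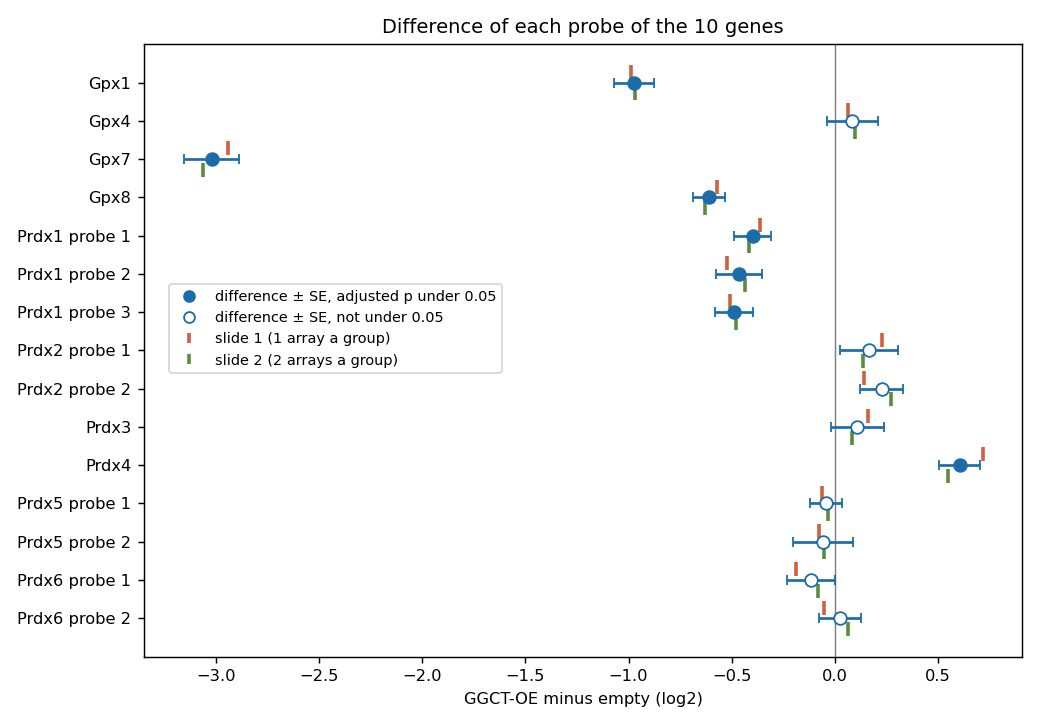
Log2 difference, GGCT-OE minus empty, of each of the 15 probes, with its SE; filled circles passed the threshold with every probe tested, and ticks give the difference on each slide. Gpx7 lies at -3.02 and Prdx4 at 0.61, and the 3 Prdx1 probes lie between -0.49 and -0.40.

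With every probe as its own row, 6 of the 15 member probes were lower and 1 higher, where 35.2% of 31110 probes were called (17.5% lower, 17.7% higher). Groups were separate, with no overlap, for 8 of the 15 probes (against 49.7% of all probes) and for 5 of the 10 genes (against 49.3% of all genes). An exact 2-sided permutation test gave p = 0.1 for each called gene, the smallest that 3 against 3 arrays allow. Blocking by experiment or by slide changed none of the 10 gene calls, while over all genes 53.4% were then called by experiment (26.1% lower, 27.3% higher) and 53.6% by slide (26% lower, 27.6% higher). Blocking by experiment with every probe tested gave 6 member probes lower and 2 higher, the dimmer Prdx2 probe being added, where 53.6% of probes were called (26.2% lower, 27.4% higher).

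Ggct itself, read by a mouse probe, lay between -0.72 and -0.57 on the empty arrays and between -0.16 and 0.20 on the GGCT-OE arrays (difference 0.62 ± 0.12, adjusted p = 0.0111). The labels do not name the species of the expressed sequence. All 10 fibroblast markers tested were above background, with 2 higher (Dcn, 0.46, and Pdgfra, 0.86) and 4 lower (among them Col1a1, -0.99, and Pdgfrb, -0.94). Their summed signal was 2076 to 2504 times the 75th percentile in empty cells and 1632 to 2018 times with GGCT. Of markers of other cells, Epcam, Cdh1, Kdr, Tek, Emcn, Ptprc, Adgre1, Adipoq, Plin1, Fabp4, Cidec and Myog were well above background on 0 of 6 arrays. Also untested were Des (well above background on 2 empty and 2 GGCT-OE arrays), Myod1 (1 and 1), Krt18 (0 and 1), Krt19 (1 and 0) and Myh3 (0 and 1). Krt8 (1.18, and 0.62 after normexp correction) and Cldn4 (0.49, missing the threshold in 7 of 20 alternatives) of 6 epithelial markers rose. Of 5 endothelial markers, Pecam1 (0.43, and 0.22 after normexp correction) and Cdh5 (at least 2.18-fold, and 0.51 on the log2 scale after normexp correction) rose. Pecam1 (limma adjusted p = 0.0479) missed the threshold in 12 of 20 alternatives. The summed signal of the epithelial genes tested went from between 13.5 and 16.1 to between 18.8 and 22.1. Most of it came from Cldn4 (mean level 3.85 in empty cells and 4.34 with GGCT). For the endothelial genes tested it went from between 0.117 and 0.155 to between 0.217 and 0.265. Of 6 haematopoietic markers 4 were tested and Cd68 fell on its brighter probe (-0.27, limma adjusted p = 0.0451), missing the threshold in 13 of 20 alternatives. Its other probe differed by -0.08. The summed signal of the 4 was 24.8 to 34.3 in empty cells and 24.8 to 31.0 with GGCT. Most of it came from Itgam (mean level 4.75 in empty cells and 4.61 with GGCT). Of 5 muscle markers Acta1 was tested and fell (-3.67, and -2.66 after normexp correction), with a signal of 1.41 to 1.93 in empty cells and 0.103 to 0.167 with GGCT. Their part in the results was not tested, and fewer cells of a kind cannot be told apart from less RNA per cell.

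The genes that serve these enzymes were read from lists, starting with the recycling of peroxiredoxins. Of 12 such genes tested, 1 was higher and 4 were lower (median -0.05). The shares to set beside this and the following lists are 17.5% higher and 17.3% lower, over all genes tested. The sestrins Sesn2 (-0.68 ± 0.11, adjusted p = 0.00609) and Sesn3 (-0.62 ± 0.10, adjusted p = 0.00519), stress-induced proteins, fell, as did Txnip (-0.73, adjusted p = 0.0326), the thioredoxin-binding protein, which missed the threshold in 8 of 20 alternatives. Nucleoredoxin, Nxn, rose (0.56 ± 0.07, adjusted p = 0.00280). The mitochondrial thioredoxin Txn2 fell (-0.43 ± 0.13, adjusted p = 0.0429, missing the threshold in 9 of 20 alternatives). The cytosolic enzymes did not pass the test: thioredoxin Txn1 differed by 0.06 (adjusted p = 0.729), its reductase Txnrd1 by -0.13 (adjusted p = 0.407) and sulfiredoxin Srxn1, which repairs overoxidised peroxiredoxins, by -0.21 (adjusted p = 0.134).

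For glutathione, the electron donor of Gpx1 and Gpx4, 5 of 15 supply genes were lower and 1 higher (median -0.23). Blocking by experiment made this 9 lower and 1 higher, where 26.1% of all genes were then called lower and 27.3% higher. The cystine importer fell in both chains: Slc7a11 by 3.29-fold (-1.72 ± 0.21, and -0.77 after normexp correction) and Slc3a2 by 2.03-fold on its brighter probe (-1.02 ± 0.08), whose other probe differed by -0.27. Gclc, the catalytic subunit of the rate-limiting synthetic enzyme, fell (-0.54 ± 0.11, adjusted p = 0.0138, missing the threshold in 6 of 20 alternatives), while its modifier Gclm differed by -0.03 (adjusted p = 0.858) and glutathione reductase Gsr by -0.08 (adjusted p = 0.631). Of the NADPH sources Me1 (-0.56) and Nnt (-0.42, missing the threshold in 4 of 20 alternatives) fell, and the mitochondrial Idh2 rose 1.71-fold (0.77 ± 0.07).

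A list of 12 other antioxidant genes held Hmox1, Nqo1 and methionine sulfoxide reductases besides enzymes that act on peroxide or superoxide. Of these 12, 7 were lower and 1 higher (median -0.31). The lower ones were Sod3, Hmox1, Nqo1 and the methionine sulfoxide reductases. The extracellular superoxide dismutase Sod3 fell 24.2-fold (-4.60 ± 0.27, adjusted p = 0.000148), Hmox1 2.61-fold and Nqo1 2.39-fold. Msrb2, a mitochondrial methionine sulfoxide reductase, was at least 9.08-fold lower, being well above background on 0 of 3 GGCT-OE arrays, and differed by -1.62 after normexp correction, which adds an offset and gives a smaller fold than this bound. Catalase (-0.24, adjusted p = 0.303), Sod1 (-0.32, adjusted p = 0.0854) and the mitochondrial Sod2 (0.06, adjusted p = 0.604) did not pass, and catalase and Sod1 passed when experiments were blocked (adjusted p = 0.0241 and 0.0111). Of the 4 glutathione peroxidases outside the 10 genes, Gpx2 was tested and rose from a low level (0.59, adjusted p = 0.0422, missing the threshold in 8 of 20 alternatives). Gpx3 and Gpx6 were well above background on 0 of 6 arrays, and Gpx5 on 1 empty array only.

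Around Gpx7, Gpx8 and Prdx4 in the endoplasmic reticulum, 8 of 16 genes of oxidative folding were lower and 0 higher (median -0.47). Ero1a, the oxidase that makes hydrogen peroxide while it forms disulfides, fell 3.38-fold (-1.76 ± 0.11, adjusted p = 0.000213). Vkorc1, which can also drive disulfide formation, fell 1.96-fold. The disulfide isomerases P4hb (-0.54 ± 0.07, adjusted p = 0.00317) and Txndc5 (-0.61 ± 0.07, adjusted p = 0.00189) and the chaperone Hspa5 (-0.55 ± 0.08, adjusted p = 0.00303) fell too.

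Gpx1 and Gpx4 need selenocysteine, and of the 9 genes of its insertion 2 were higher, 1 lower and 6 not called (median -0.02), where 34.8% of all genes were called. Selenocysteine lyase Scly (0.68) and Trnau1ap (0.34) rose. Sephs2, which makes the selenium donor, was just under the threshold (-0.33, adjusted p = 0.0496) and missed it in 13 of 20 alternatives, and Secisbp2, which reads the insertion signal, did not pass (-0.43, adjusted p = 0.0752; 0.00787 when experiments were blocked). Trnau1ap missed it in 8 of 20. Among 11 other selenoprotein genes 4 were lower and 1 higher (median -0.18). The selenium carrier Selenop fell 3.18-fold, Selenos 1.65-fold, Selenok 1.63-fold and Selenom 1.31-fold.

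Of 9 regulators of the NRF2 response 4 were lower and 0 higher (median -0.31). Nfe2l2, which encodes NRF2, fell 1.49-fold on its brighter probe (-0.58 ± 0.08, adjusted p = 0.00274) and differed by -0.24 on the other. Its relative Nfe2l1 fell 2.05-fold, the autophagy receptor Sqstm1 2.37-fold and Mafg 1.24-fold, the last missing the threshold in 10 of 20 alternatives.

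**Figure D3:**
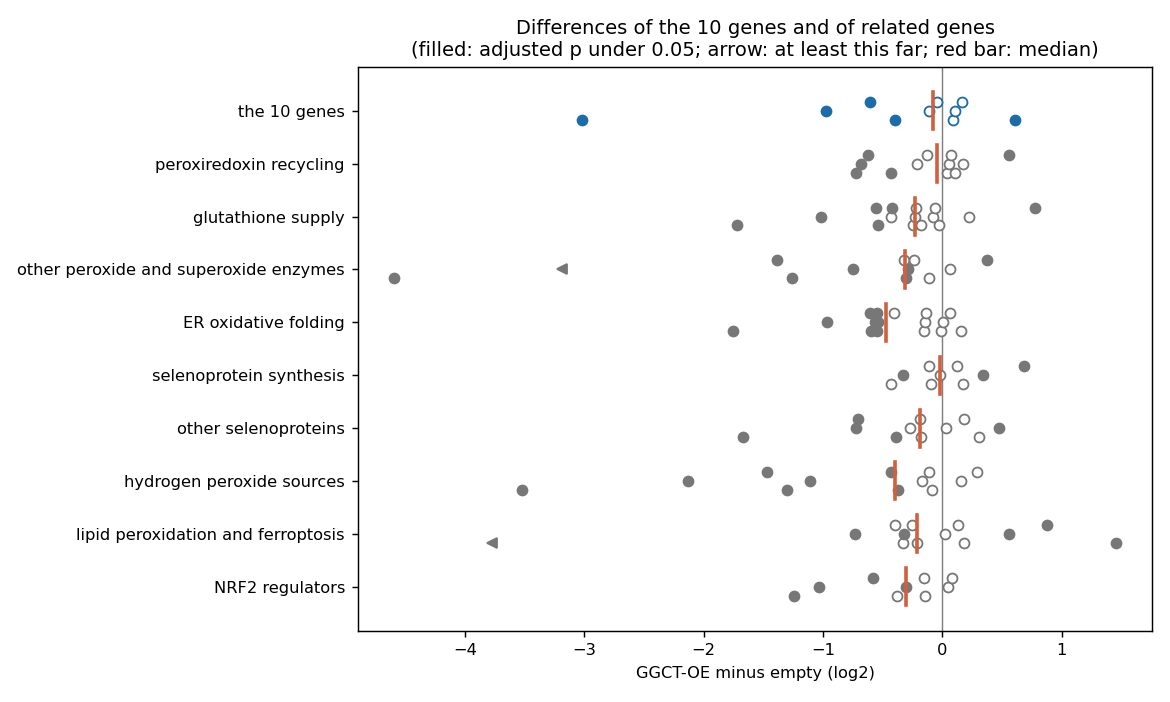
Log2 differences, GGCT-OE minus empty, of the 10 genes (blue) and of the 9 related lists with more than 1 gene tested (grey), 1 symbol per tested gene; filled symbols passed the threshold, arrows are bounds and red bars are medians. The medians of these 9 lists run from -0.47 for oxidative folding to -0.02 for selenoprotein synthesis.

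**Figure D4:**
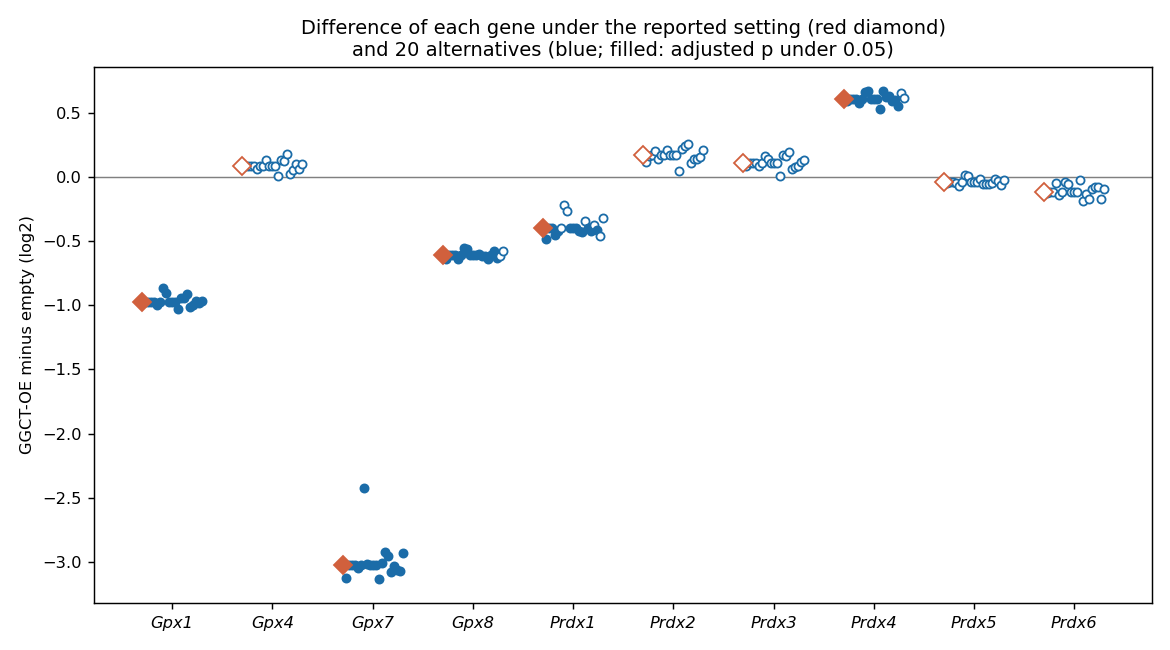
Log2 difference, GGCT-OE minus empty, of each gene under the reported setting (red) and under 20 alternatives (blue), filled where the adjusted p was under 0.05. Gpx7 ran from -3.13 to -2.42, Gpx1 from -1.03 to -0.87 and Prdx1 from -0.49 to -0.22.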

How the data were processed

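Total RNA was labelled with Cy3, per the labels, and each sample was hybridised to 1 Agilent array. The deposited scanner files hold spot intensities extracted with Agilent Feature Extraction 12.1.0.3, background-subtracted and detrended per the file headers; flags for background and outliers come with them. The deposited series table holds log2 values that equal the log2 processed intensity minus a constant per array (correlation 1). Control spots (3671 of 62976) and outlier spots (578 over 6 arrays) were dropped, spots of a probe were averaged on log2 (a probe counted as well above background where at least 0.5 of its spots were), and the 75th percentile was subtracted on each array (380.0 to 471 units; 54.6% to 61.7% of probes above background). Probes were named by accession through RefSeq (GRCm38.p6), which named 34504 of 56570. The grid names another build, so its gene coordinates are not given; promoter windows carry their own build. Probe sequences were not used here, so cross-hybridisation with related copies was not tested.

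A gene is its brightest probe, tested if each of the 3 arrays of a group, either one, had it well above background, with limma 3.58.1 in R 4.3.3 (lmFit, eBayes, 2-sided, no block, Benjamini-Hochberg over 23774 genes). Every probe was also fitted as its own row. For a bound ("at least N-fold"), each dim array was given the lowest value well above background on it, or the probe's own value if higher, before the group means were divided. The named genes are all 10 members, up to 4 members with the smallest p of each list, and some fixed genes (Txn1, Txnrd1, Srxn1, Gsr, Gclc, Gclm, Slc7a11, Cat, Sod1, Sod2, Nfe2l2, Ggct, Sephs2, Secisbp2, Ero1a, P4hb, Gpx3). Pdgfra, Txn2, Nnt, genes not tested and the chromosomal neighbours were named after their values were seen. The members, the 10 related lists and the 6 marker lists were chosen with earlier results of these data known; the motifs were chosen after the members' values were seen. Simulated data with known changes were used to test the fit. Replicate 1 of both groups shared slide 1 and scan 1, replicates 2 and 3 slide 2 and scan 2. Same-numbered arrays deviated together (r = 0.731, 0.453 and 0.358 across genes). Unlike-numbered arrays on slide 2 did too (0.299 for empty 2 with GGCT-OE 3, 0.342 for empty 3 with GGCT-OE 2). A shared experiment therefore cannot be told apart from a shared slide, and the numbers were taken as pairs in the blocked fits only. Blocked values stand beside named results that gained or lost a call. Blocked counts of a list more than 1.5 times larger are given beside the list or in the section on the processing. The number of arrays limits the precision. Alternatives were quantile normalization, a median shift, normexp background with offset 50 on median spot signals, other filters and probe rules, trended robust variance, array weights, blocks, the deposited log2 values, and leaving out arrays or experiments.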

Additional observations from a re-analysis of the deposited data

How the results depend on the processing

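The counts of members called (4 lower, 1 higher) held within 1.5 times under all alternatives that kept 6 arrays, with 3 lower under quantile normalization, normexp background and no filter on dim probes. The replicate block left 4 members lower and 1 higher and changed no member gene's call, adding only the dimmer Prdx2 probe (8 member probes against 7); 12685 genes were called in all, against 8274 without it. The count over all genes was 12826 with array weights, 12753 with the slide as a block and 4711 with no filter. Leaving out arrays or experiments gave 1781 to 9112 genes, 2 to 7 member probes, 2 to 4 members lower and 0 to 1 higher; the count over all genes moved by over 1.5 times without the empty array of experiment 3 (5176) and without both arrays of experiment 2 (2958) or 3 (1781); the lowest counts of members came without both arrays of experiment 2 or of experiment 3, where the fit had 4 arrays and spanned both slides. No called member changed sign; Prdx5, which was not called (-0.04), stood at 0.01 with quantile normalization and with normexp background. Running each setting with every probe on its own was chosen after seeing the data. Under the replicate block the lists changed by over 1.5 times for lipid peroxidation genes (6 lower against 3), glutathione supply (9 against 5 lower), selenoprotein synthesis (2 against 1 lower), other selenoproteins (2 against 1 higher), peroxide sources (1 against 0 higher) and haematopoietic markers (1 against 0 higher). Over all genes that block called 26.1% lower and 27.3% higher, against 17.3% and 17.5% without it. A median shift moved the median of all genes from 0.02 to -0.01.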

Other observations

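Genes that make or feed on peroxide also differed. Of 12 tested sources of hydrogen peroxide 7 were lower with GGCT and 0 higher (median -0.40), where 17.3% of all genes were lower and 17.5% higher. Aox1, aldehyde oxidase, fell 11.5-fold (-3.52 ± 0.14, limma adjusted p = 4.22e-05, and -2.74 after normexp correction), the NADPH oxidase Duox1 4.39-fold (-2.13, and -0.92 after normexp correction, with 2 of the 3 GGCT-OE arrays well above background), the monoamine oxidase Maoa 2.77-fold and the xanthine dehydrogenase Xdh 2.16-fold. Nox4 was well above background on 0 of 6 arrays. Of 13 genes of lipid peroxidation and ferroptosis, the process that Gpx4 restrains, 3 were higher and 3 lower (median -0.21). Alox5, which peroxidises arachidonic acid, was at least 13.7-fold lower (-1.85 on the log2 scale after normexp correction), and Ncoa4, the receptor for ferritin breakdown, fell 1.66-fold. Gch1, which makes a lipid-protecting cofactor, rose 2.75-fold (1.46, and 0.60 after normexp correction), and the transferrin receptor Tfrc rose 1.83-fold.

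The genes whose 6-array profiles lay closest to those of the 3 members with the largest differences, among 14045 named genes, were H2bc4, 9030619P08Rik and Arsg for Gpx7 (root mean square distances of 0.0858, 0.103 and 0.139 on the log2 scale), Serpinb6a, Mfsd3 and Stk40 for Gpx1 (0.0235, 0.0315 and 0.0372), and Eif4a2, Plekhh2 and Vat1 for Gpx8 (0.0317, 0.0339 and 0.0346). These are descriptions over 6 arrays that share groups and slides.

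Chromosomal neighbours differed between members. Among the 20 tested genes nearest to Gpx8 in RefSeq order, 12 were lower and 1 higher (median -0.56), and among those nearest to Prdx4, 10 were higher and 1 lower (median 0.44). Around Gpx1 8 were lower and 2 higher (median -0.36), and around Gpx4, which was not called, 10 were higher and 0 lower (median 0.33). Around Gpx7, with the largest decrease, 5 were lower and 1 higher (median -0.23), and its adjacent tested genes Coa7 (0.21) and Tut4 (-0.23) were not called. Around Prdx1 3 were lower and 2 higher (median -0.10). Of the other members, none of them called, Prdx6 had 8 higher and 2 lower (median 0.24) and Prdx2 0 higher and 4 lower (median -0.0009). Prdx3 had 4 higher and 1 lower of 14 (median 0.24), and Prdx5 2 higher and 0 lower (median 0.13). Over all genes tested 17.3% were lower and 17.5% higher, and whether these neighbourhoods bear on the members was not tested.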
